A study of Mus musculus with 6 samples.

Results

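Interferon-stimulated genes are switched on by secreted interferons, the antiviral alarm proteins of vertebrates. Interferon at the cell surface activates the kinases Jak1 and Tyk2, and the transcription factor STAT2 then acts with IRF9 in a complex that binds a short response element in the promoters of these genes. Their products block viruses at entry, translation and budding. In cells that meet no interferon, most of them are kept at a low resting level.

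The 9 genes described here are Stat2, Irf9, Irf7, Ifit1, Ifit2, Ifit3, Isg15, Bst2 and Ifi27. They were taken by name from the 27179 gene records of the deposited tables, and all 9 were found. RNA was sequenced from 3 Smchd1 null and 3 wild type libraries of cultured neural stem cells. The null cells carried 2 copies of MommeD1, an allele with a premature stop codon in Smchd1. The gene encodes a chromatin protein that keeps the inactive X chromosome and some autosomal gene clusters silent. Cells of both groups were male, were derived from E14.5 brains of C57BL/6 x FVB/N mice, and grew on polyornithine and laminin. The medium held EGF and bFGF at 20 ng/ml each, and the labels name no interferon. The series describes each sample as a cell line and does not say whether replicates came from separate embryos, so p-values measure only the spread between these libraries, which may be technical.

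Total counts per library ran from 18608881 to 23253367. Smchd1 stood at 29.7 ± 1.68 CPM in null and 254 ± 20.0 CPM in wild type (SD, n = 3 each), where CPM is a gene's count per 1 M counts of TMM-adjusted depth. Wild type replicate 3 stood apart. A single record, Entrez gene 100861531, took 44.6% of its counts and at most 5.90% of those of any other library, and TMM scaling gave it a depth of 10.1 M counts, with the others at 21.3 to 25.8 M. Its sample name ends in 14, next to 11, 12 and 13 of the null libraries, whereas those of wild type replicates 1 and 2 are NPC_RNA_113 and NPC_RNA_114. The 8 neural stem cell markers, among them Nes, Sox2, Vim and Fabp7, summed to 5757 to 5917 CPM in null and 5803 to 6131 CPM in wild type.

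The response element bound by the STAT and IRF9 complex has the core GAAANNGAAA, or TTTCNNTTTC on the other strand. Both were searched in RefSeq promoter windows of GRCm38.p6, which run from 250 bases before to 50 bases after a gene start and were found for 8 of the 9 genes, all but Ifi27. The 8 genes had 10 windows, since Ifit2 and Irf9 have 2 each. The core was present in 5 of the 10 windows, each of a different gene, against 3.44% of 32851 windows of that length and 2.72% of the windows of tested genes. The windows are shown because they share the element while the RNA of their genes, given further on, ranged from almost none to above the median gene. They read 5′ to 3′ along the gene, and capitals mark the core.
Ifit1 (chr19:34640639-34640938, plus strand): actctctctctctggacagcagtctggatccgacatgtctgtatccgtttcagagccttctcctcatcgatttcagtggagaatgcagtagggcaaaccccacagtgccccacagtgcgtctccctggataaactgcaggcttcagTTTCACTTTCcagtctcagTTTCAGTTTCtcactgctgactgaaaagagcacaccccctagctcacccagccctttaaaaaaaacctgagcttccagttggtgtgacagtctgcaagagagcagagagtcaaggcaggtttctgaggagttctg
Ifit3 (chr19:34583279-34583578, plus strand): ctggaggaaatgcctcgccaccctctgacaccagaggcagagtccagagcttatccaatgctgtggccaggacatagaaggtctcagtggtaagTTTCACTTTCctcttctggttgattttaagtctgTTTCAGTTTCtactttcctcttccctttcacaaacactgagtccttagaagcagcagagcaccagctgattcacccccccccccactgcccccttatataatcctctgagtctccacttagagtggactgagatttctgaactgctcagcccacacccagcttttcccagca
Isg15 (chr4:156200769-156201068, minus strand): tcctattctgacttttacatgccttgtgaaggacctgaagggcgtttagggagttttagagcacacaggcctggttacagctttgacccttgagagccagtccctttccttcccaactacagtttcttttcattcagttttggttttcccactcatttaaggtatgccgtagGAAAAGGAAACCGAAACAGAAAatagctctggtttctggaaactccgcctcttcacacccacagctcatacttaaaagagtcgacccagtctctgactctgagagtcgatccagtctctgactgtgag
Bst2 (chr8:71537423-71537722, minus strand): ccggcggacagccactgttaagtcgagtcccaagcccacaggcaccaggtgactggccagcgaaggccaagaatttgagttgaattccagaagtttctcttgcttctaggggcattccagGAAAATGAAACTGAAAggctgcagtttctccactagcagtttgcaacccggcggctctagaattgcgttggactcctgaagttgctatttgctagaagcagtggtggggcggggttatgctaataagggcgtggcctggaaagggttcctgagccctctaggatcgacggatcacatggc
Stat2 (chr10:128270248-128270547, plus strand): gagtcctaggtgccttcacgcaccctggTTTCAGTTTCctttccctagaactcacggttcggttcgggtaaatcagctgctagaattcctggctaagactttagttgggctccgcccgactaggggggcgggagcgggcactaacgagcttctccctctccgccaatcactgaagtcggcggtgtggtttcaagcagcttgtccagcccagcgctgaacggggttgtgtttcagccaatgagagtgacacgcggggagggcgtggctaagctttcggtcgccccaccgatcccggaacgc
Ifit1 and Ifit3 each held 2 separate cores, beginning 104 and 85 bases before the start of Ifit1 and 156 and 122 bases before that of Ifit3. In Isg15 3 overlapping matches began 78, 72 and 66 bases before the start, and in Bst2 2 overlapping matches began 130 and 124 bases before it. Stat2 held 1, at 222 bases. The windows of Ifit2, Irf7 and Irf9 held no match to these letters.

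The 9 genes differed widely in RNA level. Per kilobase of deposited gene length, Bst2 led with 10.5 ± 2.46 CPM per kb (mean and SD over all 6 libraries), beside the median of 7.96 for all tested genes. Ifit2 (3.66 ± 1.09), Irf9 (2.84 ± 0.36) and Stat2 (2.52 ± 0.17) followed, and their ranges over the 6 libraries overlapped. Ifi27 (0.760 ± 0.445) and Irf7 (0.404 ± 0.118) came next and overlapped with each other. At the bottom stood Isg15 (0.161 ± 0.086), Ifit3 (0.112 ± 0.074) and Ifit1 (0.0431 ± 0.0438), each overlapping its neighbour in the order. Below Bst2, below Stat2 and below Irf7 the ranges did not overlap with the next gene down.

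**Figure D1:**
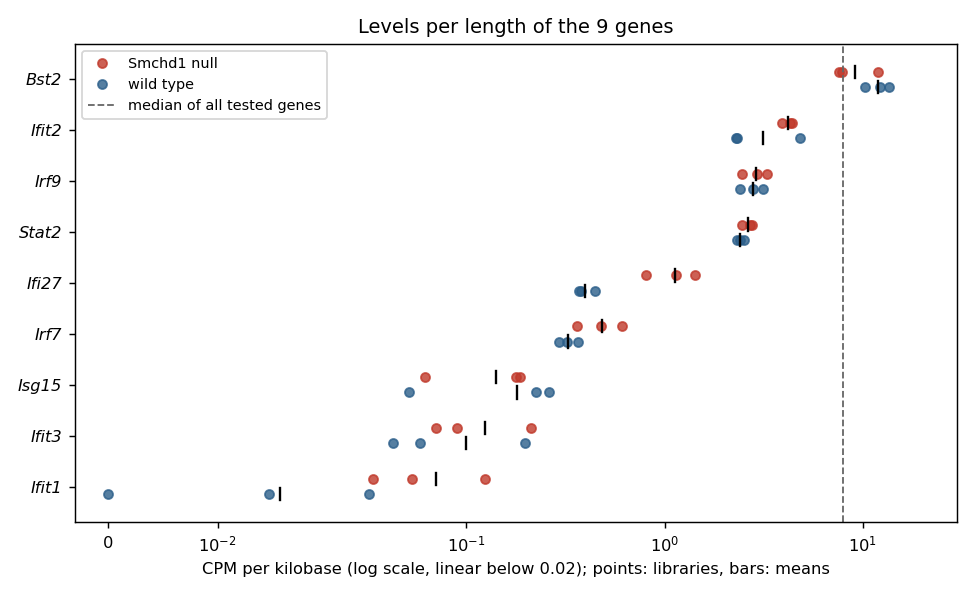
Levels per length of the 9 genes, in CPM per kilobase of deposited gene length on an axis that is logarithmic above 0.02, with 1 point per library, bars for group means (n = 3) and a dashed line at the median of all tested genes (7.96). Bst2 alone reaches the dashed line, with 7.54 in its lowest and 13.6 in its highest library, and Isg15, Ifit3 and Ifit1 lie lowest.

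The comparison asked whether these genes change when Smchd1 is lost. None of them passed the edgeR quasi-likelihood test (0 higher and 0 lower at an adjusted p under 0.05). Only 6 of the 9 were abundant enough to be tested. Among all 14207 tested genes 0.577% were called, 0.507% higher and 0.0704% lower in null, so a count of 0 among 6 is near that background. At an unadjusted p under 0.05 the count was 1 of the 6 (Ifi27), against 18.6% of all tested genes, and the groups did not overlap for 1 of the 6 (again Ifi27), against 22.0%.

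Other fits gave other counts, each beside a background that moved with it. DESeq2, which called 2.82% of all tested genes, and limma-voom, which called 0.894%, also called 0 of the 6. A term for the sample-name range gave 0 beside 1.31%, and the libraries named 11 to 14 alone gave 0 beside 2.55%. With sample quality weights limma-voom called 2 higher and 1 lower in null, beside calls for 36.4% of all tested genes (19.0% higher, 17.4% lower). With wild type replicate 3 left out, edgeR placed Ifi27 and Ifit2 among the higher genes and Bst2 among the lower ones, beside calls for 39.2% of 14494 genes (19.7% higher, 19.4% lower). The median log2 fold change of the 6 was 0.30, beside 0.00128 for all tested genes. Irf7 and Ifi27 entered the test through the null group, since all 3 null libraries exceeded the filter of 0.518 CPM before TMM scaling and only 2 and 1 of the wild type libraries did, so this median supports no direction.

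The transcription factors that carry the signal were all detected, and none passed the test. Stat2 (Entrez gene 20847, chr10:128270498-128292853 in GRCm38.p6), a signal transducer of the complex, had 11.8, 12.1 and 10.8 CPM in the null libraries, against 10.5, 10.2 and 11.01 CPM in the wild type libraries. Wild type replicates 1 and 2 lay just below all null libraries, and wild type replicate 3 lay among them. Its log2 fold change was 0.13 ± 0.10 (SE), with a 95% interval of -0.10 to 0.36 and an adjusted p of 0.485 in edgeR.

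Irf9 (Entrez gene 16391, chr14:55603985-55610030 in GRCm38.p6), the DNA-binding subunit of the complex, had 6.58, 7.87 and 8.83 CPM in null and 6.47, 8.44 and 7.54 CPM in wild type. The groups lay on top of each other, with replicate 1 the lowest in both. The log2 fold change was 0.05 ± 0.16 (95% interval -0.31 to 0.41, edgeR adjusted p = 0.861).

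Irf7 (Entrez gene 54123, chr7:141263183-141266499 in GRCm38.p6), an interferon-induced factor that amplifies interferon gene transcription, was scarce, with 24, 19 and 15 counts in the null libraries and 14, 16 and 6 counts in the wild type libraries. As CPM this was 0.895 ± 0.229 in null and 0.607 ± 0.070 in wild type (SD, n = 3 each). The lowest null library (0.669 CPM) lay just under the highest wild type library (0.682 CPM), so the groups overlapped. The log2 fold change of 0.55 ± 0.30 had a 95% interval of -0.13 to 1.23 (edgeR adjusted p = 0.339).

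**Figure D2:**
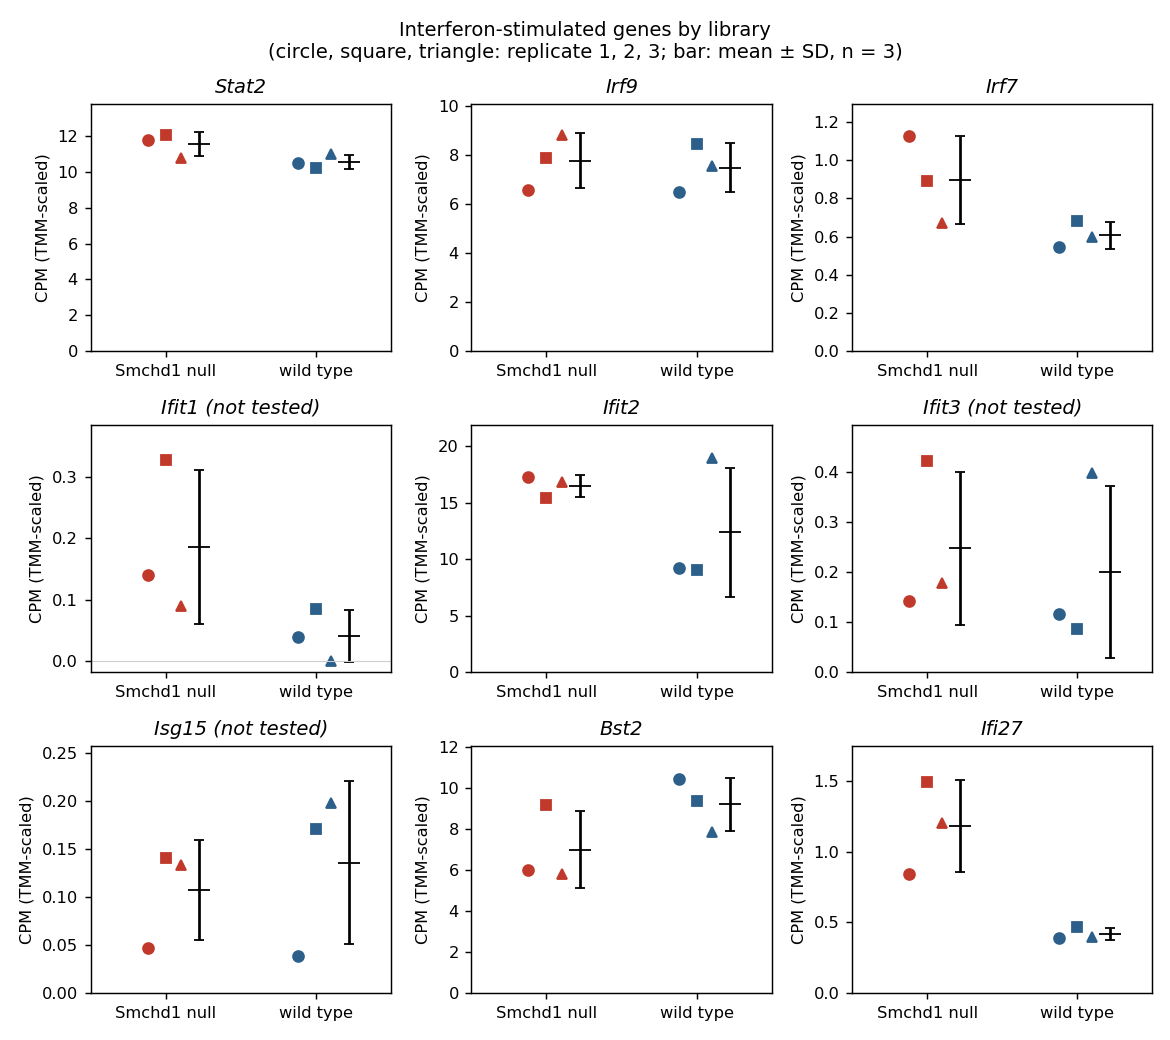
CPM of the 9 genes in each library, with Smchd1 null at left and wild type at right in each panel, symbols for replicates 1 to 3 and black bars for mean ± SD (n = 3). The Ifi27 panel shows separate groups, and in the Ifit2 panel wild type replicate 3 (19.0 CPM) sits with the null libraries while wild type replicates 1 and 2 (9.19 and 8.996 CPM) sit below them.

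The IFIT proteins, which bind foreign RNA and block its translation, split between 1 expressed gene and 2 that were almost silent. The genes lie near each other on chromosome 19, Ifit2 (Entrez gene 15958) at chr19:34550550-34576534, Ifit3 (15959) at chr19:34583119-34588982 and Ifit1 (15957) at chr19:34640889-34650009. Ifit1 had 3, 7 and 2 counts in the null libraries and 1, 2 and 0 counts in the wild type libraries. Null replicate 3 and wild type replicate 2 both had 2 counts, so the groups were not separate in counts. The ratio of pooled counts, scaled by effective depth, was 3.65 for null over wild type, with an exact binomial 95% interval of 0.984 to 20.1 that covers counting error only. Ifit3 had 3, 9 and 4 counts in null and 3, 2 and 4 counts in wild type (ratio 1.62, interval 0.675 to 4.16). Both promoters held the response element core, and that of Ifit2 did not. Neither Ifit1 nor Ifit3 was tested, because neither reached the filter in any library. A count of 0 allows up to 3 counts, which is 0.116 to 0.298 CPM depending on the library, so most of these values were near the limit of detection.

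Ifit2, by contrast, had 367, 329 and 378 counts in the null libraries, or 17.2, 15.4 and 16.9 CPM, and 237, 211 and 191 counts in the wild type libraries, or 9.19, 8.996 and 19.0 CPM. The null libraries were tightly grouped, and the wild type libraries were split, with replicate 3 above every null library and replicates 1 and 2 below them. The log2 fold change over all 6 libraries was 0.47 ± 0.27 (95% interval -0.17 to 1.11, edgeR adjusted p = 0.374). Without wild type replicate 3 it was 0.86 and passed (adjusted p = 5.6e-06). Among the libraries named 11 to 14 alone, where wild type replicate 3 stands alone for wild type and is assumed to vary like the null ones, the sign turned to -0.20 (adjusted p = 0.549). For wild type replicates 1 and 2 the genotype and the sample-name range cannot be told apart.

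That layout was common in these libraries. Wild type replicates 1 and 2 lay on one side of all null libraries while wild type replicate 3 did not in 39.2% of all tested genes, and among the 6 tested genes of this group in Ifit2, Stat2 and Bst2. It was also found in 7 of the 8 oligodendrocyte lineage markers and in 5 of the 7 astrocyte markers. Nor was it limited to these, since 5 of the 8 neural stem cell markers and 4 of the 7 tested neuron markers had it. So did 4 of the 5 tested fibroblast and meningeal markers, 1 of the 3 tested microglial ones and 0 of the 2 tested endothelial and mural ones. The oligodendrocyte lineage markers summed to 1423, 1431 and 1504 CPM in the null libraries and to 1212, 1115 and 1597 CPM in wild type replicates 1, 2 and 3, with none at 0. Pdgfra, a receptor of oligodendrocyte precursors, had 112.6, 128 and 137 CPM in null and 17.1, 18.3 and 167 CPM in wild type. The astrocyte markers summed to 333, 339.4 and 350.2 CPM in null and 318, 339.4 and 387 CPM in wild type, so the sum of wild type replicate 2 lay within the null range. Among them Gja1, a gap junction protein, ran the other way, with 55.5, 54.7 and 51.9 CPM in null and 91.1, 106 and 60.2 CPM in wild type. The 6 fibroblast and meningeal markers other than Pdgfra summed to 12.2, 13.8 and 12.9 CPM in null and to 7.52, 6.35 and 14.4 CPM in wild type replicates 1, 2 and 3. The part of these shifts in the Ifit2 result was not tested, and in bulk RNA fewer cells of a type and less RNA per cell cannot be told apart.

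Isg15 (Entrez gene 100038882, chr4:156199424-156200818 in GRCm38.p6), a ubiquitin-like protein that is attached to other proteins during infection, had 1, 3 and 3 counts in the null libraries and 1, 4 and 2 counts in the wild type libraries. The 7 counts pooled in each group gave a ratio of 0.912, with an exact binomial 95% interval of 0.273 to 3.05. In its conjugation machinery, Ube2l6, the E2 enzyme, stood at 4.36 ± 0.21 CPM in null and 6.13 ± 0.44 CPM in wild type (SD, n = 3 each). The log2 fold change of Ube2l6 was -0.50 ± 0.14 and did not pass (edgeR adjusted p = 0.156). Its groups did not overlap, as in 22.0% of all tested genes. Herc6, the mouse ligase for ISG15, stood at 6.84 ± 0.18 CPM in null and 6.91 ± 0.80 CPM in wild type (log2 fold change -0.02 ± 0.13). Uba7, the E1 enzyme, had 15 counts over all 6 libraries and was not tested.

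Bst2 (Entrez gene 69550, chr8:71534255-71537472 in GRCm38.p6), or tetherin, which holds budding enveloped viruses at the cell surface, was the only one of the tested genes with a negative estimate. It had 6.01, 9.18 and 5.80 CPM in null, against 10.4, 9.38 and 7.84 CPM in wild type. Null replicates 1 and 3 lay below every wild type library, while null replicate 2 lay among them. The log2 fold change of -0.41 ± 0.20 (95% interval -0.87 to 0.04) did not pass in edgeR (adjusted p = 0.297). Without null replicate 2 it was -0.66 (adjusted p = 0.333), without wild type replicate 3 it was -0.51 (adjusted p = 0.0366), and in the libraries named 11 to 14 alone it was -0.17 (adjusted p = 0.864).

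Ifi27 (Entrez gene 52668, chr12:103434189-103440245 in GRCm38.p6), a small hydrophobic membrane protein that interferon induces strongly in human cells, showed the largest difference of the 6. It had 18, 32 and 27 counts in the null libraries, or 0.846, 1.499 and 1.20 CPM, and 10, 11 and 4 counts in the wild type libraries, or 0.388, 0.469 and 0.397 CPM. All 3 null libraries lay above all 3 wild type libraries, as did 11.4% of all tested genes, and wild type replicate 3 lay between the other wild type libraries. The log2 fold change was 1.48 ± 0.32 (95% interval 0.75 to 2.20), with an unadjusted p of 0.00136 and an adjusted p of 0.104 in edgeR. All 3 null libraries but only 1 wild type library exceeded the filter, so Ifi27 entered the test through the null group. Under 17 alternatives the estimate stayed between 1.27 and 1.87, including 1.56 for the libraries named 11 to 14 alone. These alternatives refit the same few counts, so the steady estimate is not separate support. Over the alternatives the edgeR, DESeq2 or limma-voom adjusted p ran from 0.00367 to 0.429. Ifi27 passed in 2 of them, without wild type replicate 3 and with sample quality weights. The null group was counted at 2.83 times the wild type level by mean CPM, on at most 32 counts in a library.

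**Figure D3:**
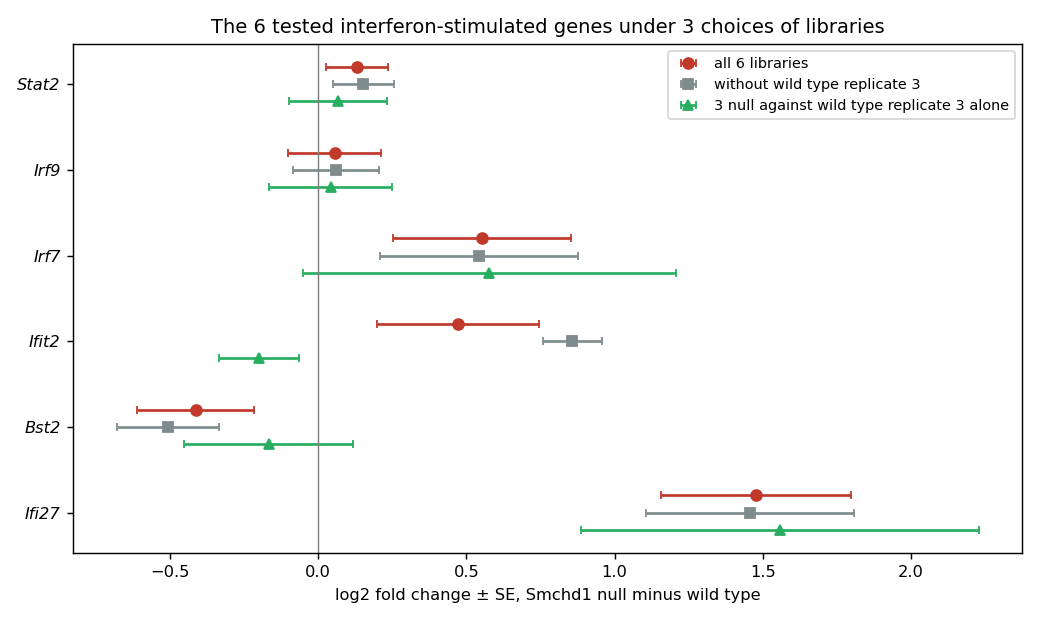
Log2 fold change (Smchd1 null minus wild type) with its standard error for the 6 tested genes, from all 6 libraries, without wild type replicate 3, and with the 3 null libraries against wild type replicate 3 alone. Ifi27 lies between 1.46 and 1.56 in all 3 sets, Stat2 and Irf9 stay near 0, and Ifit2 moves to 0.86 without wild type replicate 3 and to -0.20 against it alone. All 3 sets share the null libraries, and Irf7 and Ifi27 entered the test of all 6 libraries through the null group.

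Near copies of these genes were almost silent. Ifi27l2a, Ifit1bl1, Ifit1bl2 and Ifit3b had at most 9 counts each over all 6 libraries, and Ifi27l2b had 0. The record of Ifit1 overlaps Ifit1bl1, that of Ifi27 overlaps Ifi27l2a, that of Stat2 overlaps Apof and that of Isg15 overlaps Gm46878, and the library kit does not mark strand. Since Ifi27l2a had 5 counts and Apof 4 in total, few reads were counted to these partners. The record of Ifi27 lies wholly within that of Ifi27l2a. Low partner counts do not show how reads lying in both records were counted, so the counts of Ifi27 and Stat2 carry that uncertainty. Counts of Gm46878 were not analysed here, and the counts of Ifit1 and Ifit3 could share reads with their copies and are uncertain for that reason.

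The rest of the interferon pathway was surveyed with 8 lists of 102 genes, of which 62 were tested. In edgeR 0 were called higher and 0 lower, beside 0.577% of all tested genes, so this count is near the background. Counts of 0 for single lists, given below, stand beside the same share. At an unadjusted p under 0.05, 5 were higher and 5 lower (16.1%, against 18.6% of all tested genes). The groups did not overlap for 12 of the 62 (19.4%), against 22.0% of all tested genes. The estimates were positive for 30 and negative for 32, with a median log2 fold change of -0.01. The limma-voom test also called 0, beside 0.894% of all tested genes, and DESeq2 called 2 lower, beside 2.82%. Leaving out wild type replicate 3 gave 13 higher and 9 lower of 65 tested in edgeR, beside 39.2% of all genes in that fit. Of the pathway genes described individually, those that passed in that fit with positive log2 fold changes were Tyk2 (0.44), Irf3 (0.25), Dhx58 (1.08), Lgals3bp (1.57) and Irgm1 (0.87). With negative ones they were Jak2 (-0.17), Rnaseh2a (-0.36), Gbp2 (-0.68), Gbp3 (-0.82) and Gbp7 (-0.55), as well as Ube2l6 (-0.55). With the sample-name range as a term 0 passed. In that fit Dhx58 (1.47) and Lgals3bp (1.602) stayed high, while Irf3 (0.05), Tyk2 and Irgm1 (each -0.02) lay near 0. The negative estimates kept their sign, at -0.57 for Gbp2, -0.39 for Gbp7, -0.37 for Ube2l6 and -0.20 for Gbp3. Those of Rnaseh2a (-0.11) and Jak2 (-0.04) were the smallest of these.

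Interferon RNA itself was at or near 0 counts. Of 11 ligand genes 8 had no count in any library, among them Ifnb1, Ifna1, Ifna2, Ifna4, Ifna5 and both Ifnl2 and Ifnl3, and the other 3 had at most 7 counts each over all libraries. Of 9 receptors and kinases that receive the signal 8 were abundant enough to be tested, and Ifnlr1, a chain of the interferon lambda receptor, had 3 counts over all libraries. Ifnar1, the first type I receptor chain, had 98.1 ± 2.21 CPM in null and 103 ± 2.37 CPM in wild type, and Jak1 had 81.2 ± 2.04 CPM in null and 87.8 ± 2.10 CPM in wild type (SD, n = 3 each). None of the 8 passed. The smallest p values belonged to the kinases Tyk2 (log2 fold change 0.29 ± 0.14, edgeR adjusted p = 0.292) and Jak2 (-0.13 ± 0.06).

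Irf3, the factor that starts interferon transcription after sensing, stood at 28.4 ± 0.66 CPM in null and 25.0 ± 3.16 CPM in wild type (SD, n = 3 each). Its log2 fold change was 0.19 ± 0.10 (edgeR adjusted p = 0.329). None of the 5 tested genes in the list of other STAT and IRF factors passed.

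Among 11 tested genes of nucleic acid sensing none passed, and the smallest p values were those of Dhx58 and Ikbke. Dhx58, which encodes the RNA sensor LGP2, had 1.55, 1.64 and 0.981 CPM in null and 0.659, 0.640 and 0.496 CPM in wild type. The groups did not overlap, as in 22.0% of all tested genes. The log2 fold change of Dhx58 was 1.16 ± 0.29 (edgeR adjusted p = 0.137). Ikbke, a kinase that phosphorylates IRF3 and IRF7, stood at 0.90 ± 0.34 (adjusted p = 0.225). Both were among 6 of the 62 tested pathway genes that exceeded the filter in all null libraries but not in all wild type libraries.

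Effectors other than the 9 genes were mostly scarce and gave no call. Of 34 listed, 18 were tested and 3 (Oas1g, Oas3 and Ifi44l) had no count. Mx1, a GTPase that blocks incoming viruses, had 0, 0 and 3 counts in null and 0 in every wild type library. Lgals3bp, a secreted galectin-binding protein, had 0.612 ± 0.128 CPM in null and 0.203 ± 0.051 CPM in wild type (log2 fold change 1.57 ± 0.38, edgeR adjusted p = 0.128). It exceeded the filter in 3 null and 0 wild type libraries, so it entered the test only through the null group. In the list of negative regulators and nucleic acid clearance 0 of 12 passed, led by Rnaseh2a, the catalytic subunit of RNase H2 (-0.29 ± 0.08, adjusted p = 0.174), and Irf2bp2 (-0.08 ± 0.07).

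**Figure D4:**
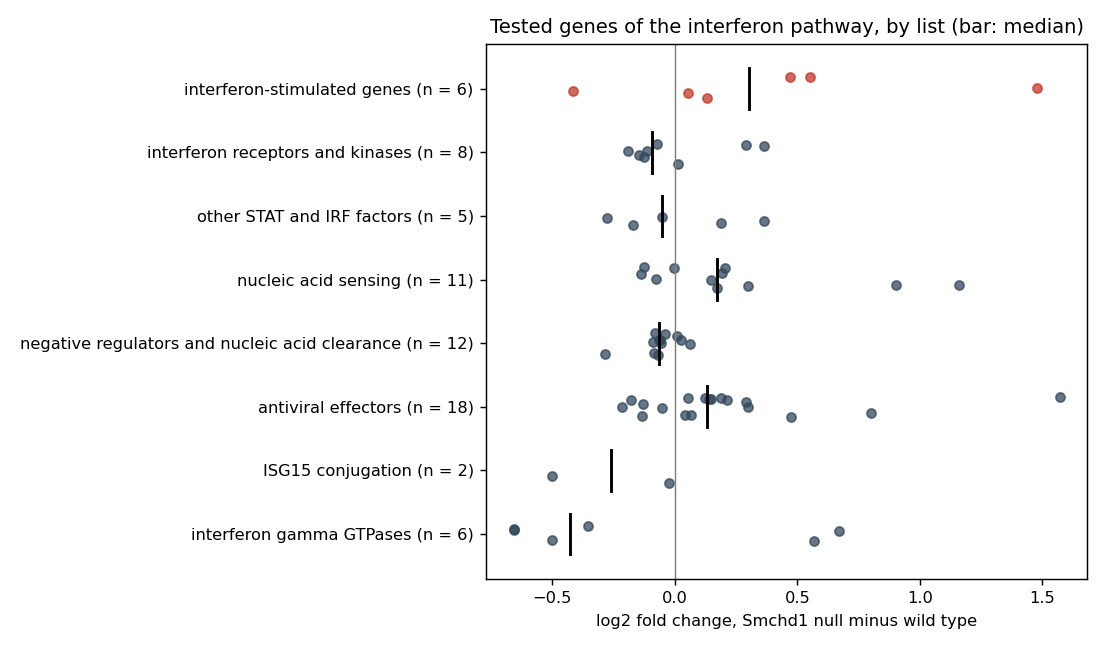
Log2 fold change (Smchd1 null minus wild type) of every tested gene of the interferon pathway, 1 point per gene, in rows by list with a bar at the list median. The 6 interferon-stimulated genes are in red in the top row, the medians of the lists run from -0.43 for the interferon gamma GTPases to 0.30 for the top row, and no point passed the edgeR test.

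Guanylate-binding proteins, GTPases induced mainly by interferon gamma, had negative estimates for all 4 tested members. The 4 genes are neighbours on chromosome 3, from Gbp5 at chr3:142496934 to the end of Gbp2 at chr3:142638008. Gbp7 had 34.0, 41.8 and 37.6 CPM in null and 51.8, 58.9 and 49.4 CPM in wild type. Every null library lay below every wild type library, and 22.0% of all tested genes had groups apart in either direction. The log2 fold change of Gbp7 was -0.50 ± 0.10, with the smallest edgeR adjusted p of the 62 pathway genes (0.0867). Gbp7 passed in DESeq2 (-0.51, adjusted p = 0.00237), which called 2.82% of all tested genes. Among the libraries named 11 to 14 alone, where wild type replicate 3 stands alone for wild type, Gbp7 was at -0.39. With the sample-name range as a term in the fit of all 6 libraries it did not pass (-0.39, adjusted p = 0.16). Gbp3 stood at -0.66 ± 0.19 (edgeR adjusted p = 0.174) and passed in DESeq2 (adjusted p = 0.0406). It had 15.6, 21.7 and 17.6 CPM in null and 29.8, 34.8 and 21.0 CPM in wild type, with wild type replicate 3 inside the null range, and with the sample-name range as a term it was -0.20 (adjusted p = 0.716). Gbp2 (-0.66 ± 0.24) and Gbp5 (-0.36 ± 0.28) did not pass in either. The 2 tested immunity-related GTPases had the opposite sign, Irgm1 at 0.57 ± 0.24 (edgeR adjusted p = 0.26) and Igtp at 0.67 ± 0.35 (adjusted p = 0.331), and in both wild type replicates 1 and 2 lay below all null libraries while wild type replicate 3 did not. The list median over these 6 genes was -0.43, beside 0.00128 for all tested genes. Since 4 of the 6 are neighbours on chromosome 3, it does not rest on 6 separate observations.

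Most macrophage and microglial markers were scarce. Of 12 listed, 9 were not tested, with at most 12 counts each over all libraries, and of these Tmem119, Itgam, Tyrobp, C1qa and C1qb had none. The 3 tested markers included P2ry12, at 2.01 ± 0.21 CPM in null and 2.39 ± 0.53 CPM in wild type (SD, n = 3 each). The list summed to 20.6 to 23.5 CPM in null and 19.6 to 23.7 CPM in wild type. The 8 endothelial and mural markers summed to 3.52 to 4.28 CPM in null and 3.26 to 7.14 CPM in wild type.

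The average profile of the 6 tested genes, each scaled to its own spread over the 6 libraries, was highest in null replicate 2 and lowest in wild type replicate 1. Of 11364 other genes compared, the nearest profile was that of Fam193b, with a root mean square difference of 0.143 SD. Ccnh, a cyclin of the transcription factor TFIIH (0.162), the retinoic acid receptor gene Rarb (0.165), Ift81 of ciliary transport (0.169) and Tmod1, an actin-capping protein (0.17), came next. The distances of the interferon-stimulated genes themselves ran from 0.432 for Ifi27 and 0.49 for Stat2 to 1.09 for Irf9 and 1.51 for Bst2. The 5 other genes were picked as the nearest of 11364, so their smaller distances were set by that choice. The average includes Irf7 and Ifi27, which entered the test through the null group. This is a description over 6 libraries, and the likeness carries no test.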

How the data were processed

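RNA was measured in 3 Smchd1 null and 3 wild type libraries, grouped by sample title. The deposited values are raw counts per Entrez gene, with a gene length in bases, per the file headers. Per the submitters' processing notes the authors used featureCounts and CASAVA 1.8.2, with limma 3.22.0 and edgeR 3.8.2, on mm10. The sources used here name no aligner or annotation. The TruSeq RNA v2 kit does not mark strand. Symbols came from RefSeq GRCm38.p6, which matched 25275 of 27179 IDs.

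Counts were filtered with filterByExpr (14207 genes kept), scaled by TMM and tested with the robust quasi-likelihood F-test of edgeR 4.0.16 in R 4.3.3, with genotype as the only term. P-values are two-sided and adjusted by Benjamini-Hochberg over all tested genes at 0.05. Log2 fold changes are null minus wild type. Alternatives used DESeq2 1.42.0, limma 3.58.1, other scalings and filters, thinning, added terms and left-out libraries. Only the main edgeR fit was tested on simulated data, in which the wild type libraries shared the same means.

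The members and lists were chosen with earlier results of these data known. Named genes are the 9 members, Smchd1, the 2 smallest p values of each pathway list, near copies and the 5 nearest profiles; other genes were named after their values were seen. Some genes that this rule names are not reported here.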

Additional observations from a re-analysis of the deposited data

How the results depend on the processing

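The count of called genes over all genes (72 higher and 10 lower in null) depended on the tool and the libraries. DESeq2 gave 180 higher and 221 lower, limma-voom 23 lower, limma-voom with quality weights 2700 and 2468, and no filter 163 and 59. The sample-name term gave 109 lower, and the libraries named 11 to 14 alone 126 higher and 250 lower. Leaving out 1 library gave 29 to 2857 higher and 1 to 2819 lower, the high ends without wild type replicate 3. Calls among the 9 genes, 0 in each direction, became 2 higher and 1 lower with quality weights and ran from 0 to 2 higher and 0 to 1 lower over left-out libraries, with Ifi27, Ifit2 and Bst2 called without wild type replicate 3. Other pathway genes, also 0, had 13 higher and 8 lower with quality weights, 2 lower in DESeq2, 1 lower with no filter (Gbp7), 2 lower in the libraries named 11 to 14 (Irf2 and Gbp7), and 0 to 13 higher and 0 to 9 lower over left-out libraries. Log2 fold changes changed sign for Ifit2 with the sample-name term (-0.20) and in the libraries named 11 to 14 (-0.20), and for Irf9 without null replicate 3 (-0.051) and without wild type replicate 1 (-0.053), in a range up to 0.16 without wild type replicate 2. Stat2, Irf7, Ifi27 and Bst2 kept their sign in every alternative that gave a value, and Stat2, Irf7 and Irf9 passed in none. The stricter filter gave no value for Ifi27 and Irf7, and thinning none for Irf7. Same-numbered libraries did not deviate together from their group means (correlations of -0.0059, 0.027 and -0.041), and differently numbered ones gave -0.052 to 0.057. With wild type replicate 3 standing apart, this check cannot show whether the numbers mark a shared source. The replicate block gave 48 higher and 6 lower over all genes and 0 calls among the 9 genes. The causes of these shifts were not tested. Ifit1, Ifit3 and Isg15, at 14 to 25 counts over all libraries, are limited by depth.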

Other observations

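Genes silenced by Smchd1 often lie in clusters, so the surroundings of the 9 genes were examined, a choice made after the data were seen. Windows reaching 500 kb to either side held 177 tested genes, counted once per window. The windows of Ifit1, Ifit2 and Ifit3 overlap, so genes there count more than once. In all windows 0 passed the edgeR test, beside 0.577% of all tested genes, so this count is near the background. The nearest called gene to any of the 9 was Serpina3n, a serine protease inhibitor of reactive astrocytes, 966 kb from Ifi27 on chromosome 12, with a log2 fold change of 2.29 (edgeR adjusted p = 0.0292). Around Isg15 on chromosome 4 the nearest called gene was Zfp979, at 8557 kb, with a log2 fold change of 1.65 (adjusted p = 0.00599).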
